A study of Mus musculus with 6 samples.

Results

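miR-132 and miR-212 (mmu-miR-132 and mmu-miR-212 in the table) are a pair of microRNAs (miRNAs, short RNAs that repress messenger RNAs) that were selected by name from the deposited miRNA table of the left ventricle of aged mice. They made up 2 of its 698 rows. The study sequenced small RNA from 3 HCM mutant mice of genotype aMHC403/+, a heterozygous model carrying the R403Q change in Myh6, and from 3 wild-type (WT) mice. Myh6 encodes the alpha-myosin heavy chain, which in mice is made by heart muscle cells, and HCM is taken here as hypertrophic cardiomyopathy, a thickening of the heart muscle. All 6 animals were older than 50 weeks and are described as biological replicates; the labels give neither strain nor sex. The comparison asks whether the level of each miRNA differs between mutant and WT ventricles at this age.

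In mice, miR-132 and miR-212 are processed from a shared noncoding transcript whose transcription responds to the factor CREB. In mouse heart muscle cells both repress the messenger RNA of Foxo3, a transcription factor that restrains growth and promotes autophagy, and raising either miRNA enlarges these cells, which is why the pair is called pro-hypertrophic. Both are also known from neurons, where miR-132 acts on dendrite growth, and miR-132 is known from blood vessels and immune cells.

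The deposited mature sequences are shown because their shared start sets which messages they can pair with, in a line each with the seed (bases 2 to 8 from the 5′ end) in capitals.
miR-132: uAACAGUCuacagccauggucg
miR-212: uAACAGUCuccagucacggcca
Both were 22 bases long, shared the first 9 bases and were identical at 17 positions. Counted from the 5′ end, with the base of miR-132 first, the 5 differences were A10C, C14U, U17C, U20C and G22A. Of the 1738 mature mouse miRNAs in the RefSeq table of GRCm38.p6, only these 2 carried this seed, and no other row of the deposited table had it at bases 2 to 8. Their reads were therefore all the reads of this seed in the table.

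Each deposited sequence matched the 3′ arm of its RefSeq precursor exactly. The precursor hairpins are printed to show where the mature strand, in capitals, lies.
Mir212: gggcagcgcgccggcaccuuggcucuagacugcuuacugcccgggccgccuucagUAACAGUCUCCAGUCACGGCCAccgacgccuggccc
Mir132: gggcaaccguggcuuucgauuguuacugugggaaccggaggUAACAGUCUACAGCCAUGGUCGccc
Mir212 lay at chr11:75173388-75173478 and Mir132 at chr11:75173682-75173747 on the plus strand of GRCm38, with 203 bases between them. In the GENCODE M21 annotation both lay in an intron of the noncoding gene 1700016P03Rik (chr11:75172560-75177633), with Mir212 the nearer to its start, at 828 bases. The opposite arms, miR-132-5p and miR-212-5p, were not analysed here.

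The mutant libraries held 2483486 to 4267939 miRNA reads and the WT libraries 3647223 to 5223636, and levels are given as reads per 1000000 miRNA reads (RPM). Of the 698 rows, 478 were detected and 193 had a mean of at least 10 RPM and were tested together. Among these, limma called 10 miRNAs higher in the mutant, or 5.18% of those tested, and 0 lower at a Benjamini-Hochberg adjusted p under 0.05. At an unadjusted p under 0.05, 38 were higher and 4 lower; at the adjusted threshold, edgeR called 8 higher and 1 lower and DESeq2 8 and 4. The count moved to 24 without HCM mutant replicate 1, to 5 without WT replicate 1, to 22 without WT replicate 2 and to 1 without WT replicate 3. The labelled tissue was checked against 6 miRNAs of heart muscle, all of which were detected. They summed to 400920 to 463232 RPM in the mutant libraries and 425038 to 503987 RPM in the WT libraries. In such bulk samples fewer cells of a type and less RNA per cell cannot be told apart.

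miR-132, the abundant partner, averaged 247 ± 44.4 RPM in the mutant and 172 ± 43.1 RPM in WT (SD, n = 3 each), a ratio of means of 1.43, but did not pass the test. It stood at 298, 219 and 224 RPM in HCM mutant replicates 1, 2 and 3. In WT replicates 1, 2 and 3 it stood at 134, 219 and 164 RPM. HCM mutant replicate 1 was the highest library and WT replicate 1 the lowest. The groups met in the middle, since the lowest mutant library and the highest WT library, both replicate 2, were only 0.00416 RPM apart, less than the worth of 1 read.

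On the log2(RPM + 1) scale, which barely alters a level of this size, miR-132 was 0.53 ± 0.24 (SE) higher in the mutant, with a 95% interval of 0.05 to 1.02 (limma adjusted p = 0.180; unadjusted p = 0.0330). The interval spans a 1.03-fold to a 2.03-fold higher level. All 3 mutant libraries lay above all 3 WT libraries, which was also the case for 18.1% of the tested miRNAs, and 19.7% were higher at an unadjusted p under 0.05. The two-sided exact permutation test over the 20 assignments gave p = 0.1, the smallest that 3 against 3 libraries allow.

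**Figure D1:**
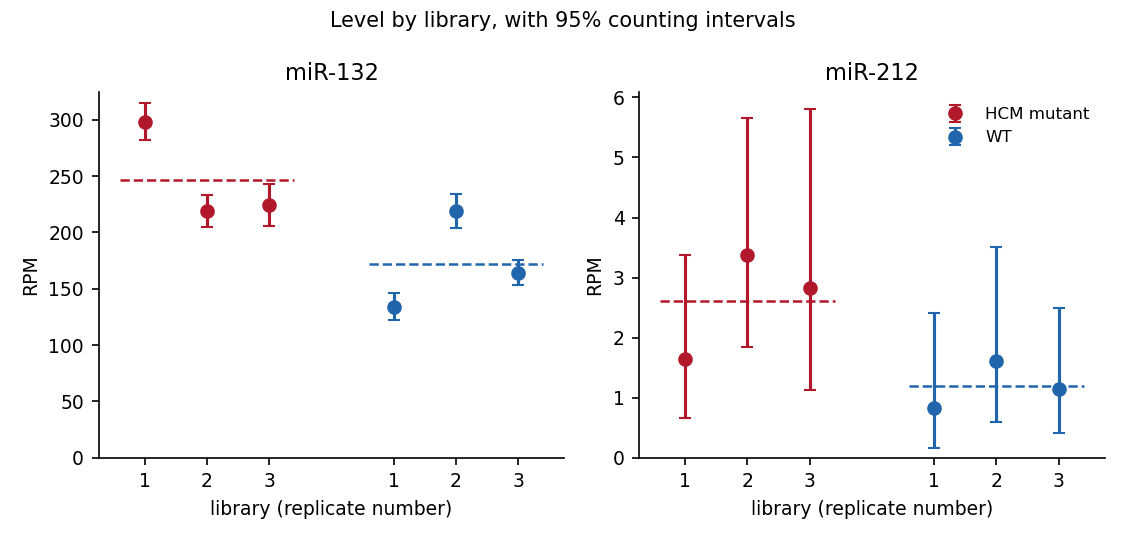
Level of miR-132 (left) and miR-212 (right) in RPM in each library, with HCM mutant libraries in red and WT libraries in blue, numbered by replicate. Bars are exact 95% Poisson intervals of the reads and dashed lines are group means. For miR-132 HCM mutant replicate 2 and WT replicate 2 lie level at 219 RPM, and for miR-212 the intervals of the groups overlap.

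The spread of miR-132 between libraries was wider than its counting error. The mutant libraries held 1272, 908 and 556 reads of miR-132 and the WT libraries 487, 813 and 858. From these counts alone the expected coefficient of variation averaged 3.45% in the mutant and 3.82% in WT, while the observed values were 18.0% in the mutant and 25.02% in WT. In the WT libraries the highest level was 1.64 times the lowest, more than the 1.43-fold ratio between the group means. Whether this spread lay between the animals or between the library preparations was not tested.

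Within the abundance order, miR-132 ranked 69 to 81 in the mutant libraries and 80 to 87 in the WT libraries. By its mean over all 6 libraries it was the 78th most abundant miRNA. The 2 tested miRNAs next above it were miR-652 (255 ± 46.1 RPM in the mutant, 178 ± 61.4 RPM in WT) and miR-10a (224 ± 87.9 RPM in the mutant, 208 ± 21.0 RPM in WT). Next below it were miR-194 (205 ± 45.9 RPM in the mutant and 193 ± 74.4 RPM in WT) and miR-15b (227 ± 26.7 RPM in the mutant and 170 ± 24.9 RPM in WT). These neighbours were chosen by their mean level, so their closeness to miR-132 in level was fixed in advance.

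By size of difference miR-132 ranked 36th of the 193 tested miRNAs, and by p 35th. Log2 differences lay above 0 for 137 of them, with a median of 0.15, and miR-132 lay 0.38 above that median. Scaling, which moves all miRNAs of a library alike, changed its own difference. After median-of-ratios scaling the difference was 0.35 (limma adjusted p = 0.295), with the median of all tested at -0.02. When the totals were taken without the top 5 miRNAs by abundance, the difference was 0.40, and the groups then overlapped for both miR-132 and miR-212.

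**Figure D2:**
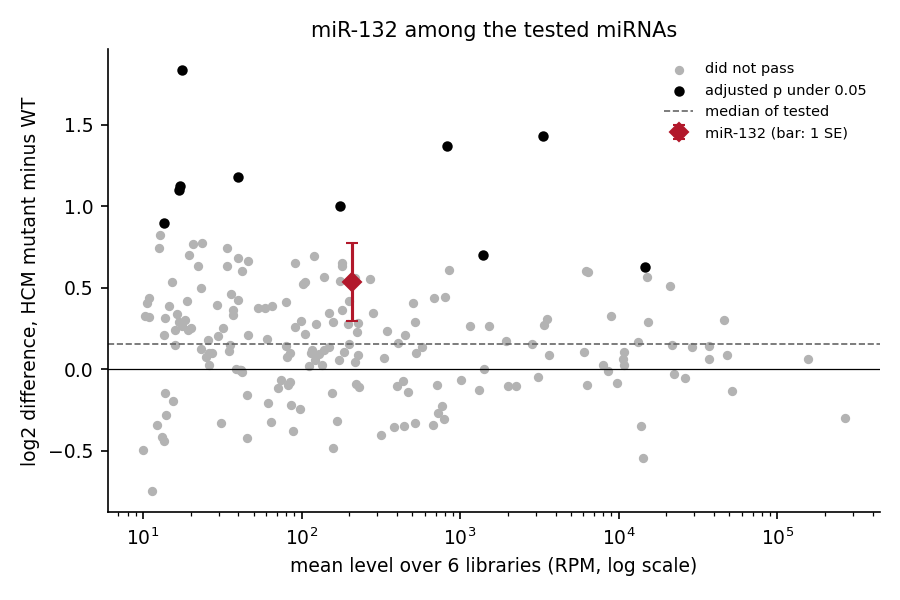
Log2 difference on the log2(RPM + 1) scale, HCM mutant minus WT, against mean level in RPM (log axis) for the 193 tested miRNAs, with the 10 that passed in black, the others in grey and miR-132 as a red diamond with 1 SE. The dashed line is the median of 0.15, and miR-132 lies above it among grey points of similar height.

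Leaving out single libraries shifted the difference of miR-132 between 0.37, without WT replicate 1, and 0.72, without WT replicate 2. Without WT replicate 2 the limma adjusted p was 0.0529, against a range of 0.0529 to 0.551 over all 18 alternatives, so miR-132 did not pass under any setting tried. Without HCM mutant replicate 1, the library with the highest level, the difference was 0.39 (limma adjusted p = 0.432).

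**Figure D3:**
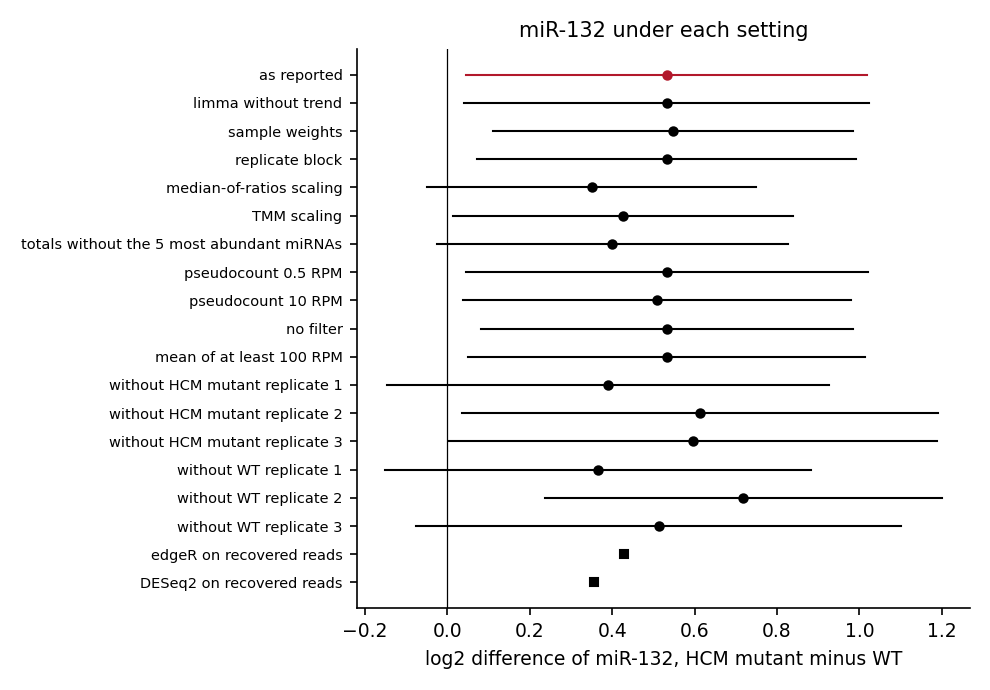
Log2 difference of miR-132, HCM mutant minus WT, as reported (red) and under each of the 18 alternatives (black). Lines are 95% intervals from limma, and squares are edgeR and DESeq2 estimates drawn without an interval. All estimates lie above 0, between 0.35 and 0.72. The interval includes 0 after median-of-ratios scaling and with totals taken without the top 5 miRNAs. It also does without HCM mutant replicate 1, WT replicate 1 or WT replicate 3.

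miR-212, the rare partner with the same seed, averaged 2.61 ± 0.884 RPM in the mutant and 1.19 ± 0.397 RPM in WT (SD, n = 3 each). It stood at 1.64, 3.37 and 2.82 RPM in HCM mutant replicates 1, 2 and 3, from 7, 14 and 7 reads. In WT replicates 1, 2 and 3 it stood at 0.823, 1.61 and 1.15 RPM, from 3, 6 and 6 reads. The lowest mutant library, replicate 1, lay 0.0271 RPM above the highest WT library, replicate 2, which is less than the worth of 1 read. WT replicate 1 was at the level that a count of 0 would still allow (3 reads, 0.823 RPM).

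With a mean of 1.90 RPM miR-212 was under the minimum of 10 RPM and was tested alone. The difference was 0.70 on the log2(RPM + 1) scale, which understates changes at such levels, and the two-sided exact permutation test gave p = 0.1, the smallest it can give. Among the 285 miRNAs detected below 10 RPM, the mutant libraries lay above the WT libraries without overlap for 5.61%. In a limma fit without the filter the difference of 0.70 ± 0.33 (SE) did not pass (limma adjusted p = 0.279; unadjusted p = 0.0390). In that fit 3.16% of the 285 were higher at an unadjusted p under 0.05. With edgeR on the reads of all detected miRNAs the difference was 0.997 and did not pass either (edgeR adjusted p = 0.384).

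Few reads stood behind these values. All mutant libraries together held 28 reads of miR-212 in 10905702, and all WT libraries 15 in 12590562, a ratio of 2.16 with an exact 95% interval of 1.11 to 4.34. That interval covers counting error in these pooled libraries only, not the difference between animals. For single libraries the exact Poisson intervals ran, for example, from 1.84 to 5.65 RPM in HCM mutant replicate 2 and from 0.592 to 3.51 RPM in WT replicate 2, and they overlapped between the groups. The observed coefficients of variation, 33.9% in the mutant and 33.3% in WT, were no larger than those that counting alone gives, 34.1% in the mutant and 46.5% in WT.

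As a pair, the shared seed was carried almost entirely by miR-132. The summed level was 300, 222 and 227 RPM in HCM mutant replicates 1, 2 and 3, and 134, 220 and 165 RPM in WT replicates 1, 2 and 3. It averaged 249 ± 43.6 RPM in the mutant and 173 ± 43.5 RPM in WT (SD, n = 3 each), a difference of 0.54 on the log2(RPM + 1) scale (two-sided exact permutation p = 0.1, the smallest possible). miR-212 made up 0.547%, 1.52% and 1.24% of the pair's reads in the mutant libraries and 0.612%, 0.733% and 0.694% in the WT libraries. HCM mutant replicate 1 was the lowest of all 6 and HCM mutant replicates 2 and 3 were the highest, so the groups overlapped.

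The test of whether the partners responded differently used the log2 ratio of miR-132 to miR-212 within each library, which no scaling of the totals affects. It averaged 6.61 ± 0.79 in the mutant and 7.19 ± 0.13 in WT (SD, n = 3 each), a difference of -0.58 that did not pass (two-sided exact permutation p = 0.4). Without HCM mutant replicate 1 the difference was -1.03 and without HCM mutant replicate 2 it was -0.29. In the mutant libraries 182, 64.9 and 79.4 reads of miR-132 were found per read of miR-212, and in the WT libraries 162, 136 and 143. With 3 against 3 libraries this test cannot go below p = 0.1, so it does not show that the partners responded alike.

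**Figure D4:**
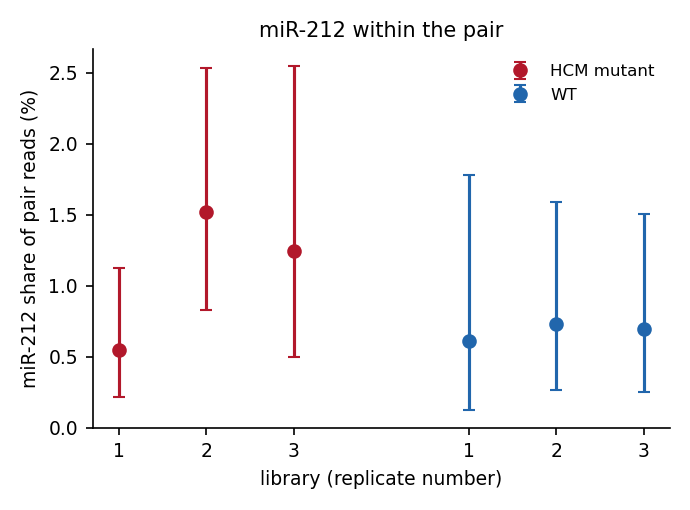
miR-212 as a percentage of all miR-132 and miR-212 reads in each library, HCM mutant in red and WT in blue, with exact (Clopper-Pearson) 95% intervals. The 3 WT libraries lie between 0.612% and 0.733%, inside the range of the mutant libraries of 0.547% to 1.52%.

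Across the 6 libraries the log2(RPM + 1) levels of the partners had a Pearson correlation of 0.58, and 139 of the 477 other detected miRNAs followed miR-132 more closely than miR-212 did. The tested miRNAs most like miR-132 were miR-547 (r = 0.99), miR-503 (0.98), miR-18a (0.96), miR-574-3p (0.92) and miR-376c (0.91). miR-503 averaged 27.2 ± 8.13 RPM in the mutant and 17.6 ± 7.05 RPM in WT. After median-of-ratios scaling miR-503 came first (r = 0.97), ahead of miR-18a, while miR-547 came 3rd (0.84) and miR-376c 7th (0.74). The tested miRNAs most like miR-212 were miR-21 (r = 0.96), miR-127 (0.96), miR-467c (0.96), miR-376a (0.95) and miR-125b* (0.95), none of which was among the 5 most like miR-132. After median-of-ratios scaling miR-21 stayed first, but miR-467c, miR-376a and miR-125b* came 6th, 7th and 17th, so these orders depend on the scaling. These correlations describe 6 libraries that share the split by genotype and their totals, and for miR-212 they rest on 3 to 14 reads per library.

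Other miRNAs reported from experiments in mouse or rat hearts to promote hypertrophy were listed from general knowledge, with earlier results of these data known. The comparison of this list with all tested miRNAs is therefore not independent of the data, and the same holds for the lists below. Besides the pair, 17 of 19 were tested. Their median difference was 0.39, against 0.15 for all tested miRNAs, 13 of the 17 lay above 0, against 137 of all 193, and 3 passed as higher and 0 as lower, against 10 of the 193 (5.18%) as higher. At an unadjusted p under 0.05, 6 were higher and 1 was lower, against 38 (19.7%) higher and 4 lower of all 193. The lower one was miR-499 (-0.55 ± 0.17 SE, limma adjusted p = 0.0559). The 3 that passed were miR-21, abundant in cardiac fibroblasts (1.43 ± 0.26 SE, limma adjusted p = 2.09e-04), miR-199a-5p (1.18 ± 0.25, limma adjusted p = 0.00220) and miR-208b, encoded within the beta-myosin gene Myh7 (0.63 ± 0.18, limma adjusted p = 0.0282). miR-208b passed in only 7 of its 18 alternatives, and its adjusted p was 0.112 with edgeR and 0.150 with limma after TMM scaling. miR-21 and miR-199a-5p are also among the 4 fibroblast markers, which summed to a higher level in every mutant library than in any WT library; the part of those cells was not tested. After median-of-ratios scaling 2 passed as higher and 1 as lower, against 4 higher and 1 lower of all 193. With that scaling the list's median was 0.22, against -0.02 for all tested miRNAs. miR-132 was the sixth highest of the tested members when counted with them. The most abundant members were miR-208a (159956 ± 27023 RPM in the mutant and 152484 ± 19532 RPM in WT), miR-22 (49461 ± 375 RPM in the mutant and 54486 ± 4095 RPM in WT) and miR-23b (24747 ± 1408 RPM in the mutant and 17602 ± 3469 RPM in WT), and none of them passed.

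The 14 miRNAs listed as restraining hypertrophy, of which 13 were tested, had a median of -0.06, against 0.15 for all tested miRNAs. Of the 13, 6 lay above 0, against 137 of all 193, and 0 passed in either direction by limma. At an unadjusted p under 0.05, 0 were higher and 1 was lower, against 38 higher and 4 lower of all 193. The lower one was miR-1 (-0.30 ± 0.14 SE, limma adjusted p = 0.209). The most abundant were miR-1, a muscle-specific miRNA (239189 ± 32646 RPM in the mutant and 293575 ± 35456 RPM in WT), miR-26a (49779 ± 9237 RPM in the mutant and 46658 ± 7376 RPM in WT) and miR-378 (25511 ± 2418 RPM in the mutant and 26979 ± 6287 RPM in WT). After median-of-ratios scaling 3 of the 13 lay above 0, and their median was -0.24, against -0.02 for all tested miRNAs.

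**Figure D5:**
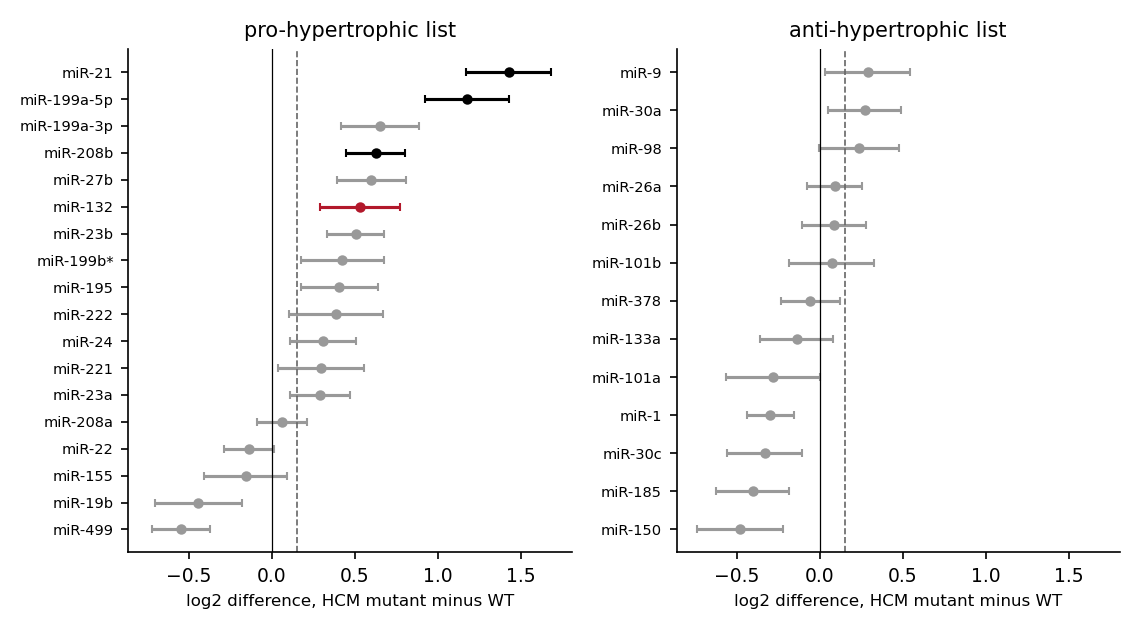
Log2 difference on the log2(RPM + 1) scale, HCM mutant minus WT, with 1 SE for the tested miRNAs listed as promoting (left, miR-132 included) and as restraining (right) hypertrophy. Black marks those that passed, grey those that did not and red miR-132, which did not; the dashed line is the median of all tested miRNAs, 0.15.

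Markers of the cells known to contain miR-132 are given beside it, and their part in its difference was not tested. The 7 leukocyte miRNAs, all detected, summed to 2176 to 2451 RPM in the mutant libraries and 1389 to 1818 RPM in the WT libraries, without overlap. Most of this sum was miR-142-3p (1728 ± 137 RPM in the mutant and 1065 ± 122 RPM in WT). Of the 6 tested leukocyte miRNAs 4 lay above 0, against 137 of all 193, and 1 passed, against 5.18% of all 193. At an unadjusted p under 0.05, 3 were higher, miR-223 (0.55) among them, against 38 of all 193, and 0 were lower. miR-150 differed by -0.48 and miR-155 by -0.16 without passing. The 4 fibroblast miRNAs, all detected, summed to 3931 to 8512 RPM in the mutant and 1613 to 3040 RPM in WT, also without overlap, and most of it was miR-21. The endothelial pair miR-126-3p and miR-126-5p summed to 30476 to 37224 RPM in the mutant and 26942 to 38273 RPM in WT, where the groups overlapped.

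All 14 neuronal miRNAs were detected in at least 1 library, summing to 417 to 786 RPM in the mutant and 689 to 822 RPM in WT, mostly from miR-218, miR-128 and miR-153. The neuron-restricted miR-124 had only 1 to 10 reads per library, and miR-383 had 1 read in all 6 libraries together, in WT replicate 1. HCM mutant replicate 1, the highest in miR-132, was the lowest in the neuronal sum and in miR-218, miR-128 and miR-153. Other members went the other way. Among them miR-124, miR-129-3p and miR-129-5p were highest in that library, on 10, 10 and 26 reads. The neuronal sum therefore mostly follows miR-218 and not the neuron-restricted miR-124. Adding miR-134, a CREB-responsive miRNA, 6 of these 15 neuronal or CREB-responsive miRNAs were tested. Their median was -0.02, against 0.15 for all tested miRNAs, and 3 lay above 0, against 137 of all 193. Of the 6, 0 passed by limma, and 0 also had an unadjusted p under 0.05.

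Set against the summed markers of the same library, miR-132 averaged higher in the mutant for 5 of 7 marker lists. All 7 ratios share the same miR-132 levels, so they are not independent of each other or of its difference in RPM. Per 1000 reads of the 6 heart muscle miRNAs, miR-132 had 0.578 ± 0.117 reads in the mutant and 0.370 ± 0.128 in WT (SD, n = 3 each), with HCM mutant replicate 2 below WT replicate 2. Per 1000 endothelial marker reads it had 7.32 ± 0.621 in the mutant and 5.51 ± 0.714 in WT, and per 1000 erythroid marker reads 109 ± 6.76 in the mutant and 70.2 ± 13.4 in WT, both without overlap. Per 1000 neuronal marker reads it had 435 ± 244 in the mutant and 237 ± 69.9 in WT, and per 1000 smooth muscle marker reads 8.13 ± 2.14 in the mutant and 6.12 ± 1.59 in WT, both with overlap. Per 1000 leukocyte marker reads it had 107 ± 19.5 in the mutant and 109 ± 17.6 in WT, and the groups overlapped. The fibroblast markers gave 45.0 ± 26.9 in the mutant and 73.0 ± 9.26 in WT, also with overlap. All 4 markers in this denominator averaged higher in the mutant, among them miR-21 (log2 difference 1.43) and miR-214 (1.37). In these 7 ratios the two-sided exact permutation p lay between 0.1, the smallest possible, and 1.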

How the data were processed

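Small RNA of the left ventricle was sequenced from 6 mice, grouped by the genotype in the labels. Per the labels' protocols, a miRVana kit was used for total RNA, from which multiplexed miRNA libraries were prepared. The deposited table holds RPM (reads per 1000000 miRNA reads), scaled per library by the authors. This unit was worked out from the values: 100% were whole multiples of the smallest value above 0, within 0.02 reads, so the reads were recovered. Not given in the sources used here: aligner, counter and genome build. 1 read was worth 0.191 to 0.403 RPM, and intervals and floors (3 reads) cover only counting error, as the labels mention no molecular identifiers.

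log2(RPM + 1) was tested with limma 3.58.1 in R 4.3.3 (trend, two-sided, no covariates) on the 193 miRNAs averaging 10 RPM or more, with Benjamini-Hochberg adjustment over all of them. miR-212 was below this filter and was tested, like the ratio and the sum, with the exact permutation test in scipy 1.17.1. The fit was tested on simulated data. edgeR 4.0.16 and, chosen after seeing the data, DESeq2 1.42.0 and edgeR without the filter were run on recovered reads. Other miRNAs were named by list membership and abundance (up to 3 per list), by the 5 highest correlations with each member, or as neighbours in level. The 3 called members of the hypertrophy list, miR-499, miR-129-3p and miR-129-5p were named after their values were seen. miR-155, miR-124, miR-134 and miR-383 were also named outside these rules. The members and lists were chosen with earlier results of these data known. Pairs of libraries within a group differed beyond what sampling of reads gives; nothing but their titles says that they are separate animals, so p-values may measure partly technical spread. Sequences and their positions are from RefSeq (GRCm38.p6), where both members matched, and the host gene is from GENCODE.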

Additional observations from a re-analysis of the deposited data

How the results depend on the processing

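miR-132, miR-212 and their sum stayed higher in the mutant, without passing, under every alternative run. Their log2 differences ranged from 0.35 to 0.72 (18 alternatives), 0.17 to 0.997 (14) and 0.36 to 0.72 (12). For 3 against 3 libraries, or fewer, the exact permutation test cannot pass 0.05, so for miR-212, the sum and the ratio this says nothing about stability. The lowest value of miR-212, 0.17, came with a pseudocount of 10 RPM, larger than its level. With that pseudocount the difference in the ratio of the partners changed sign, to 0.34 (p = 0.3, exact permutation); the pseudocount compresses miR-212 more than miR-132 by construction. Leaving out single libraries gave 0.37 to 0.72 for miR-132, 0.55 to 0.91 for miR-212, 0.37 to 0.72 for the sum and -1.03 to -0.29 for the ratio.

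Against 10 calls over all tested miRNAs, an adjusted p under 0.1 gave 21, sample weights 37, median-of-ratios scaling 5 and TMM scaling 4; the cause was not tested. Leaving out a library gave 1 to 24. Same-numbered libraries deviated from their group means with correlations of 0.51, -0.07 and 0.18. For differently numbered libraries of the groups the correlations ran from -0.42 to 0.40. The labels do not say that the numbers pair the animals. With the replicate block limma called 17 miRNAs, and miR-132 differed by 0.53 (limma adjusted p = 0.123); for miR-212, the sum and the ratio, sign flips of the 3 pairs gave p = 0.25, 0.25 and 0.5 (exact). miR-212 was below the filter of all limma settings but the one without a filter, and of edgeR as planned, so these were not run for it. miR-21 passed in 16 of 18 alternatives, miR-199a-5p in 16 of 17 and miR-208b in 7 of 18, all higher. Counting error was widest for miR-212, at 3 to 14 reads per library, against 487 to 1272 for miR-132.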
